A study of Mus musculus with 4 samples.

Results

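The subunits of the respiratory chain and of ATP synthase were followed in the colonic epithelium of control and Bmal1 cKO mice after colitis had been induced with dextran sulfate sodium (DSS), a polysaccharide that injures the colonic epithelium. The members were the genes whose symbols name a subunit of NADH dehydrogenase (complex I, Nduf and mt-Nd), of the cytochrome bc1 complex (complex III, Uqcr and mt-Cytb), of cytochrome c oxidase (complex IV, Cox4 to Cox8 and mt-Co) or of ATP synthase (complex V, Atp5 and mt-Atp). Of the 16015 genes listed, 85 met this rule, 73 encoded in the nucleus and 12 in the mitochondrial genome, and 1 further symbol, Ndufb1-ps, was dropped as a pseudogene name. Complex I had 44 of these genes, complex III 9, complex IV 14 and complex V 18. The symbol Cox4i1 is spelled in a way that the rule did not take, and mt-Atp8 was not analysed here.

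Each of 2 control mice and 2 Bmal1 cKO mice gave 1 library. The control mice carried Bmal1 fl/fl alleles and are labelled WT. The Bmal1 cKO mice carried Villin-CreERT2 and Bmal1 fl/fl, so that injected tamoxifen removes Bmal1 in cells that use the Villin promoter, which in the gut are epithelial. Whether the control mice also received tamoxifen was not stated. All mice were on a C57BL/6 background, 2 to 4 months old and, by the methods of the study, from the same litter. The drinking water held 3% DSS on 5 days and none on the 2 days that followed, and tissue was taken on day 7. The large intestine was incubated in EDTA and scraped, and the crypts were strained but not sorted, so other cells of the mucosa can be present.

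Oxidative phosphorylation is the route by which mitochondria turn the energy of nutrients into ATP. Complex I takes electrons from NADH and complex II takes them from succinate. Coenzyme Q carries them to complex III and cytochrome c carries them to complex IV, which passes them to oxygen. Complexes I, III and IV pump protons, and ATP synthase uses the return of the protons to make ATP. A limited set of core subunits carries the redox centres and the proton paths, and part of that set is encoded in the mitochondrial DNA. The other subunits are nuclear, mostly small, and are called accessory or supernumerary. In the colon, mature colonocytes rely on this route to burn the butyrate made by bacteria.

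The values were normalized counts, in which each gene's reads had been scaled by a factor for its library. Each library held between 10312791 and 14156639 reads on the genes listed. In all, 13983 genes, each averaging 10 or more normalized counts, were compared between the groups by limma on log2(normalized count + 1), with an adjusted p under 0.05 as the threshold. A log2 difference is that of Bmal1 cKO minus control on this scale, where the added 1 makes the change of sparsely read genes look smaller than it is. Of the members, 83 passed the filter, and Ndufa4l2 and mt-Nd4l did not. Mice with the same label were each counted as a sample, as labelled. Their libraries were not copies of one another, with an average chi-square per gene against counting error of 46.2 for the controls and 11.1 for the Bmal1 cKO mice over all genes tested.

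Bmal1 itself, under its symbol Arntl, stood at 358 and 342 normalized counts against 341 and 289 in the mice labelled Bmal1 cKO. Its log2 difference of -0.16 (SE 0.14) did not pass the test (adjusted p = 0.389), so its level does not check the label. The counts are per gene, and where a deletion leaves the rest of a transcript in place its reads are still counted. The part of the gene that was deleted is not given in the sources used here. Each direction given here compares libraries by their labels. The epithelial marker Epcam stood at 17455 and 21772 normalized counts against 18588 and 20319.8. Of 23 leukocyte markers, 19 were lower in the Bmal1 cKO mice and 0 were higher, and their summed level was 21786 and 34579 in the control mice against 5903 and 5464. Of 17 markers of stroma, muscle and vessels, 15 were lower and 0 were higher, with sums of 19091 and 5353 against 610.0 and 718. None of these leukocyte and stroma genes was at 0 reads in both Bmal1 cKO libraries, and Des and Rgs5 were at 0 in 1 each. Of 13 epithelial markers 5 were lower and 2 were higher, of 10 markers of differentiated colonocytes 3 were lower and 1 was higher, and of 8 goblet cell markers 6 were lower and 0 were higher. Over all genes tested, 27.7% were lower and 29.0% were higher. After a correction for the GC content and length of the transcripts, the balance of the epithelial markers turned to 2 lower and 5 higher. It gave 5 lower and 2 higher for the differentiated colonocytes, 5 lower and 0 higher for the goblet cells, 18 lower and 0 higher for the leukocytes and 14 lower and 0 higher for stroma, muscle and vessels. Over all genes the correction gave 16.7% lower and 18.4% higher. The goblet cell markers summed to 239071 and 486327 in the controls against 73550 and 104793. The epithelial markers summed to 159815 and 183951 against 151222 and 159855, and those of differentiated colonocytes to 55764 and 93149 against 65006 and 78665. For both of these lists the sums of the groups overlapped. The part of these cells in the levels below was not tested, and in such bulk samples fewer cells of a type and less RNA per cell cannot be told apart.

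The nuclear subunits split into those that fell and those that rose, and each complex held both. In the Bmal1 cKO mice, 29 (40.3%) of 72 nuclear members tested were lower and 23 (31.9%) higher, and 20 did not pass the test. Over all genes tested, 27.7% were lower and 29.0% were higher. The members' log2 differences ran from -5.36 to 1.62 with a median of -0.19, beside a median of -0.04 over all genes. Without Bmal1 cKO mouse 1 the members' median was -0.00290, and without Bmal1 cKO mouse 2 it was -0.32. Both Bmal1 cKO mice lay below both control mice for 33 of the nuclear members and above them for 26. The same held for 41.7% and 40.3% of all genes tested. Leaving out control mouse 1 left 16 nuclear members lower, and leaving out control mouse 2 left 17. Of the 52 calls among nuclear members, 33 held with each library left out in turn. Those of Ndufa2, Ndufa5, Ndufb6, Ndufb8, Ndufs5, Ndufs6, Ndufs7, Ndufv2, Ndufv3, Uqcr10, Uqcrc1, Cox5a, Cox6b1, Cox6b2, Cox7c, Atp5b, Atp5e, Atp5g1 and Atp5j did not.

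**Figure D1:**
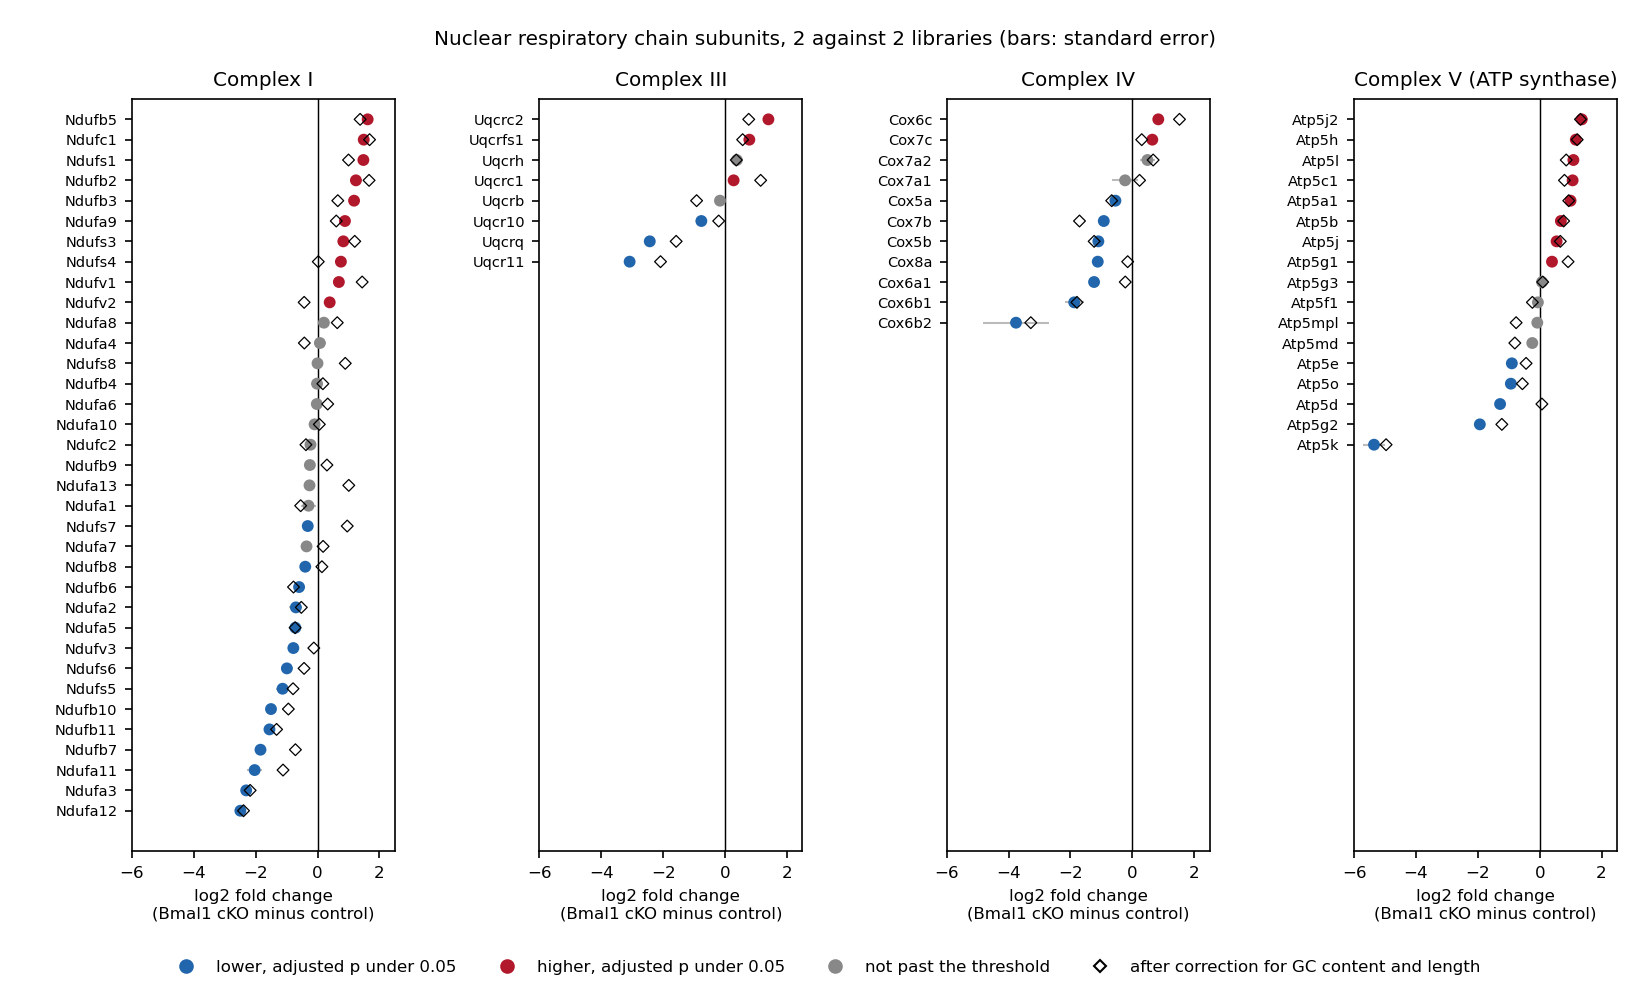
Log2 fold change (Bmal1 cKO minus control, x axis) of 71 tested nuclear subunits, 1 panel per complex, with bars for the standard error, filled circles coloured by the call and open diamonds for the value after correction for GC content and length. Each panel holds subunits on both sides of 0, from Atp5k at -5.36 to Ndufb5 at 1.62.

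Summed over all nuclear members, the normalized counts came to 118353 and 118425 for the controls against 143391 and 159436 for the Bmal1 cKO mice. The sum was thus higher in both Bmal1 cKO mice although more members fell than rose. Complex V accounted for most of this rise, with 56806 and 56372 against 80708 and 87728. Most of the rise in complex V came from Atp5a1, whose mean went from 14223 to 28397.5, and Atp5b, from 14097 to 22686. In the same complex 5 members were called lower. Complex IV went the other way, with 18981 and 19773 against 14509 and 17472. The size factors of the deposited values leave the libraries with unequal totals, and set to equal totals the median over all genes moved from -0.04 to -0.26, with 35 nuclear members lower and 20 higher. As a share of the reads on listed genes, the nuclear members took 1.02% and 0.988% in the controls against 1.05% and 1.14%, so on this scale the groups lay closer together. With the mitochondrial reads left out of the total the shares were 1.075% and 1.028% against 1.073% and 1.174%, and the groups overlapped.

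The log2 differences followed the base composition of the transcripts. Spearman's rho between log2 difference and GC content was -0.61 over 13975 genes and -0.45 over the 72 nuclear members, which come from the same 4 libraries and are no independent points. The members called lower had a median GC content of 54.8% and those called higher had 50.1%. Each library was therefore also corrected for GC content and length with a loess curve over all genes, and the comparison was run again. After the correction 22 nuclear members were lower and 26 were higher, with a median of 0.06, beside 16.7% lower and 18.4% higher among all genes. Of the 29 members first called lower, 18 stayed lower and 1, Ndufs7, became higher. Of the 23 first called higher, 20 stayed higher and 1, Ndufv2, became lower. The balance of falls against rises thus turned with the correction, while most single calls kept their side.

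**Figure D2:**
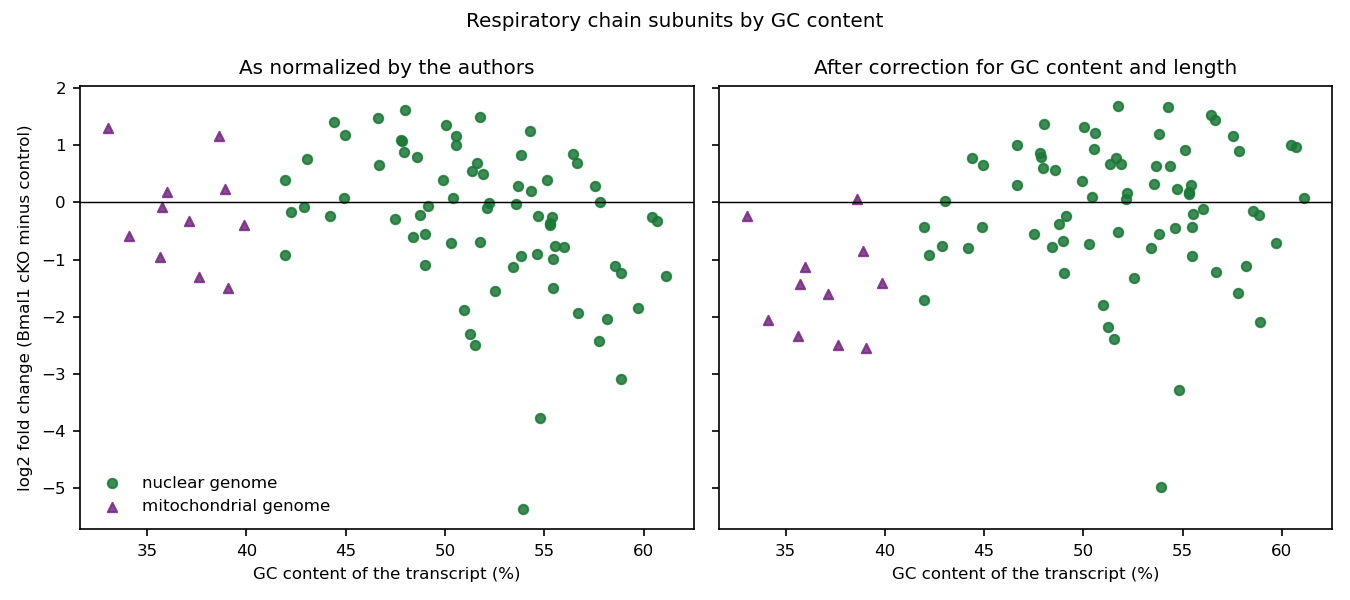
Log2 fold change (Bmal1 cKO minus control, y axis) against the GC content of the transcript in percent (x axis) for the tested members, before (left) and after (right) the correction, with circles for nuclear and triangles for mitochondrial genes. The nuclear points slope down before the correction (Spearman's rho -0.45) and not after it (0.04), and the mitochondrial points, at a GC content of 33.0 to 39.9%, lie lower after it.

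Transcript length also separated the nuclear members, and the correction left this in place. Among the 24 members with the shortest transcripts, up to 571 bases, 12 (50%) were lower and 4 (16.7%) were higher, beside 27.7% and 29.0% of all genes. Among the 24 with the longest transcripts, of 931 bases or more, 4 (16.7%) were lower and 14 (58.3%) were higher. Spearman's rho between log2 difference and length was 0.38 over the nuclear members before the correction and 0.37 after it. Over all genes it was 0.13 and 0.01. Of the 10 core subunits of complexes I and III, all but Ndufs7 were among the longest, so length and role overlap in part. Among the longest were also 8 accessory subunits of complex I, of which 3 were higher and 2 were lower.

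Complex I had 36 nuclear members tested, of which 14 (38.9%) were lower and 10 (27.8%) were higher, beside 27.7% and 29.0% of all genes. Without control mouse 1 or control mouse 2, 6 were lower in each case, and without Bmal1 cKO mouse 1, 8 were. Its 7 nuclear core subunits, which hold the flavin and the iron-sulfur clusters, had 4 members higher and 1 lower, with a median log2 difference of 0.39. The 29 accessory subunits tested had 6 members higher and 13 lower, with a median of -0.29. After the correction, 6 core subunits were higher and 1 was lower, and the accessory subunits were balanced at 8 higher and 9 lower, beside 18.4% higher and 16.7% lower over all genes. The roles were assigned after the values had been seen, so these counts are a description.

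Among the core subunits of complex I, Ndufs1, the largest of them and the carrier of several iron-sulfur clusters, had 1409 and 1358 normalized counts in the controls against 3769 and 3969.9 in the cKO mice (log2 difference 1.48, SE 0.09, adjusted p = 0.000533). Ndufs3, in the arm that reaches into the matrix, had 821 and 811 normalized counts against 1359 and 1558 (log2 difference 0.83, SE 0.11, adjusted p = 0.00209). Ndufv1, which binds NADH and the flavin, had 1352 and 1350.2 normalized counts against 2362 and 2013 (log2 difference 0.69, SE 0.11, adjusted p = 0.00421). In each of these 3 genes both Bmal1 cKO mice were above both control mice, and the log2 differences after the correction were 1.0, 1.20 and 1.44. Further core subunits moved less, and their calls depended on the correction. Ndufv2, the iron-sulfur partner of Ndufv1, had 1269.8 and 1256 normalized counts against 1583 and 1738, a log2 difference of 0.39 (adjusted p = 0.0171) that became -0.43 (adjusted p = 0.0173). Ndufs7, which carries the last iron-sulfur cluster before the quinone, had 1045 and 986 normalized counts against 791 and 839, a log2 difference of -0.32 (adjusted p = 0.0378) that became 0.96 (adjusted p = 0.00376). Both genes thus changed direction. Ndufs8, another iron-sulfur subunit, had 941 and 890.2 normalized counts against 908 and 922, and its log2 difference went from 0.00 (adjusted p = 0.997) to 0.90 (adjusted p = 0.00356).

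The accessory subunits of complex I held both its largest falls and its largest rises. Ndufa12 (ENSMUSG00000020022, chr10:94198720-94221443 of GRCm38), an accessory subunit of the matrix arm, had 823 and 783 normalized counts in the controls against 123 and 162 in the cKO mice (log2 difference -2.50, SE 0.17, adjusted p = 0.000537). Ndufa3, a small subunit of the membrane arm, had 464 and 483 normalized counts against 86.4 and 104 (log2 difference -2.31, SE 0.17, adjusted p = 0.000566). Ndufa11, which helps to hold the membrane arm together, had 190.1 and 218 normalized counts against 43.2 and 55.4 (log2 difference -2.03, SE 0.25, adjusted p = 0.00182). All 3 stayed lower after the correction, with log2 differences of -2.39, -2.18 and -1.12. Ndufb7, Ndufb10 and Ndufs5, which face the space between the membranes and are held by disulfide bonds, were lower by log2 differences of -1.84, -1.50 and -1.13, and by -0.72, -0.94 and -0.79 after the correction. Ndufa8, a further subunit of this kind, did not pass (log2 difference 0.21, adjusted p = 0.267). After the correction Ndufa8 was higher, at 0.64 (adjusted p = 0.021). In the other direction, Ndufb5 (ENSMUSG00000027673, chr3:32736990-32751566), a subunit of the membrane arm, had 617 and 674 normalized counts in the controls against 1832 and 2153 in the cKO mice (log2 difference 1.62, SE 0.12, adjusted p = 0.000553). Ndufc1, a very small membrane subunit, had 483 and 539 normalized counts against 1337 and 1549 (log2 difference 1.49, SE 0.12, adjusted p = 0.000666). The rises were therefore not limited to long transcripts, since that of Ndufc1 has 315 bases. Ndufb2 and Ndufb3, also of the membrane arm, were higher by 1.24 and 1.18, and Ndufa9, next to the quinone site, by 0.89.

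A pair of related genes showed how sparse some members were. Ndufa4, first counted to complex I by its name and now placed in complex IV, had 923 and 772 normalized counts against 736 and 1075 and did not pass the test (log2 difference 0.08, adjusted p = 0.763). Its relative Ndufa4l2, a gene induced by low oxygen, had 19 and 8 reads in the controls, whereas both Bmal1 cKO mice were at 0 reads. Against a floor of 3 reads per library its level was at least 3.20-fold lower, or at least 1.90-fold without control mouse 1 and 4.50-fold without control mouse 2, and it was too low to be tested.

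In complex III, Uqcrc2 and the Rieske protein rose and most of the small subunits fell. Uqcrc1 and Uqcrc2, the core proteins, and Uqcrfs1, the Rieske iron-sulfur protein, were all 3 higher, with a median log2 difference of 0.79. Of the 5 small subunits, 3 were lower and 0 were higher, with a median of -0.76. Over the 8 members 37.5% were thus lower and 37.5% higher, beside 27.7% and 29.0% of all genes. The counts were the same after the correction, with Uqcrb lower in place of Uqcr10, beside 16.7% and 18.4% of all genes. Uqcrc2 had 2520.1 and 2459 normalized counts in the controls against 6419 and 6788 in the cKO mice (log2 difference 1.41, SE 0.09, adjusted p = 0.000533). Uqcrfs1 had 2446 and 2579 normalized counts against 4159 and 4535 (log2 difference 0.79, SE 0.10, adjusted p = 0.00178). Uqcrc1 had 3579.5 and 3343 normalized counts against 4325 and 4087, a smaller step just past the threshold (log2 difference 0.28, SE 0.09, adjusted p = 0.0485) that did not pass it in edgeR (adjusted p = 0.066), did pass in DESeq2 (adjusted p = 0.0431), and was larger after the correction (1.16, adjusted p = 0.0023). With edgeR, TMM scaling, the replicate block or either scaling to equal totals, 2 members of complex III in place of 3 were higher. Uqcr11 (ENSMUSG00000020163, chr10:80402997-80406830), the smallest subunit, had 637 and 634 normalized counts in the controls against 67.9 and 81.1 in the cKO mice (log2 difference -3.08, SE 0.17, adjusted p = 0.000533). Its level in the control mice was on average 8.53 times that in the Bmal1 cKO mice. Uqcrq, which lies beside cytochrome b, had 1641 and 1686 normalized counts against 298 and 318 (log2 difference -2.43, SE 0.10, adjusted p = 0.000533). Uqcr10 had 1612 and 1770.3 normalized counts against 846 and 1172 (log2 difference -0.76, SE 0.17, adjusted p = 0.0141), and after the correction -0.20 (adjusted p = 0.366). Uqcrh, the acidic hinge protein at the cytochrome c1 side, had 1516 and 1641 normalized counts against 1687 and 2514 and did not pass (log2 difference 0.38, SE 0.20, adjusted p = 0.146). Uqcrb, a quinone-binding protein, did not pass either at -0.16, but was lower after the correction (-0.92, adjusted p = 0.00979).

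Complex IV leaned furthest to lower values among the nuclear subunits, with 7 of 11 lower (63.6%), 2 higher (18.2%) and a median log2 difference of -0.92, beside 27.7% lower and 29.0% higher over all genes. After the correction 4 were lower (36.4%), 1 was higher (9.09%) and the median was -0.23, beside 16.7% and 18.4% of all genes. Without either control mouse, 4 were lower and 1 was higher. Cox6b1, which faces the space between the membranes and bridges the dimer, had 1881 and 1823 normalized counts in the controls against 360.0 and 702 in the cKO mice (log2 difference -1.88, SE 0.31, adjusted p = 0.00464). The Bmal1 cKO mice were themselves far apart here, though both were below the control mice. Cox6a1, the isoform of liver and most other tissues, had 3852 and 4300.4 normalized counts against 1949 and 1529 (log2 difference -1.24, SE 0.14, adjusted p = 0.00158). Cox8a, a single-helix subunit, had 2692 and 3019.7 normalized counts against 1428 and 1208 (log2 difference -1.12, SE 0.12, adjusted p = 0.00131). Both Cox6a1 and Cox8a lost the call after the correction, with -0.23 (adjusted p = 0.233) and -0.15 (adjusted p = 0.347). The matrix-facing pair Cox5a and Cox5b, at -0.55 and -1.10, and Cox7b, at -0.92, were lower before the correction and lower after it, at -0.67, -1.23 and -1.71. Cox6c, a membrane subunit, rose, with 2191 and 2048 normalized counts against 3468 and 4149.7 (log2 difference 0.84, SE 0.12, adjusted p = 0.0029) and 1.53 after the correction. Cox7c had 2444 and 2508 normalized counts against 3434 and 4378 (log2 difference 0.65, SE 0.14, adjusted p = 0.0111), and 0.30 (adjusted p = 0.0977) after it.

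The tissue-specific isoforms of complex IV were at low levels. Cox7a1, the isoform of heart and muscle, had 27 and 34.7 normalized counts against 23.7 and 28.4 and did not pass (adjusted p = 0.651), beside 1516 and 1504 normalized counts against 1660.2 and 2709 for Cox7a2, the isoform of most tissues, which did not pass either (log2 difference 0.49, adjusted p = 0.121). Cox6b2, the isoform of testis, had 49 and 25 reads in the controls against 4 and 0. Its fitted log2 difference of -3.76 (SE 1.06, adjusted p = 0.0291) rests on these few reads, and the call was lost after the correction (adjusted p = 0.0629) and when either control mouse or Bmal1 cKO mouse 2 was left out. Cox6a2, Cox8b and Cox8c were not among the members listed.

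ATP synthase had 17 nuclear members tested, of which 8 (47.1%) were higher and 5 (29.4%) were lower, beside 29.0% and 27.7% of all genes, so the share lower was near that of all genes. After the correction the same 8 were higher and 5 were lower, beside 18.4% and 16.7% of all genes. With equal library totals 7 were higher and 7 were lower, and with equal totals over nuclear genes 7 were higher and 8 were lower. Its F1 head makes the ATP, the c ring turns in the membrane, the peripheral stalk holds the head still, and further small membrane subunits join the enzyme into dimers. The subunits of the head did not move together. Atp5a1, the alpha subunit, had 14429.6 and 14016 normalized counts in the controls against 28002 and 28794 in the cKO mice (log2 difference 1.0, SE 0.13, adjusted p = 0.00204). Atp5b, the catalytic beta subunit, had 14348 and 13847 normalized counts against 21716 and 23657 (log2 difference 0.69, SE 0.13, adjusted p = 0.00721). Atp5c1, the gamma subunit that forms the central shaft, had 3209 and 3282 normalized counts against 6031 and 7648 (log2 difference 1.06, SE 0.14, adjusted p = 0.00213). These 3 rose before and after the correction, whereas the remaining parts of the shaft went the other way before it. Atp5d, the delta subunit, had 3078 and 3247 normalized counts against 1401 and 1207 (log2 difference -1.28, SE 0.11, adjusted p = 0.000704), but 0.07 (adjusted p = 0.581) after the correction. Atp5e, the epsilon subunit, had 1493 and 1472 normalized counts against 687 and 916 (log2 difference -0.90, SE 0.15, adjusted p = 0.00546), and -0.44 (adjusted p = 0.0601) after it. Neither fall passed the test after the correction.

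**Figure D3:**
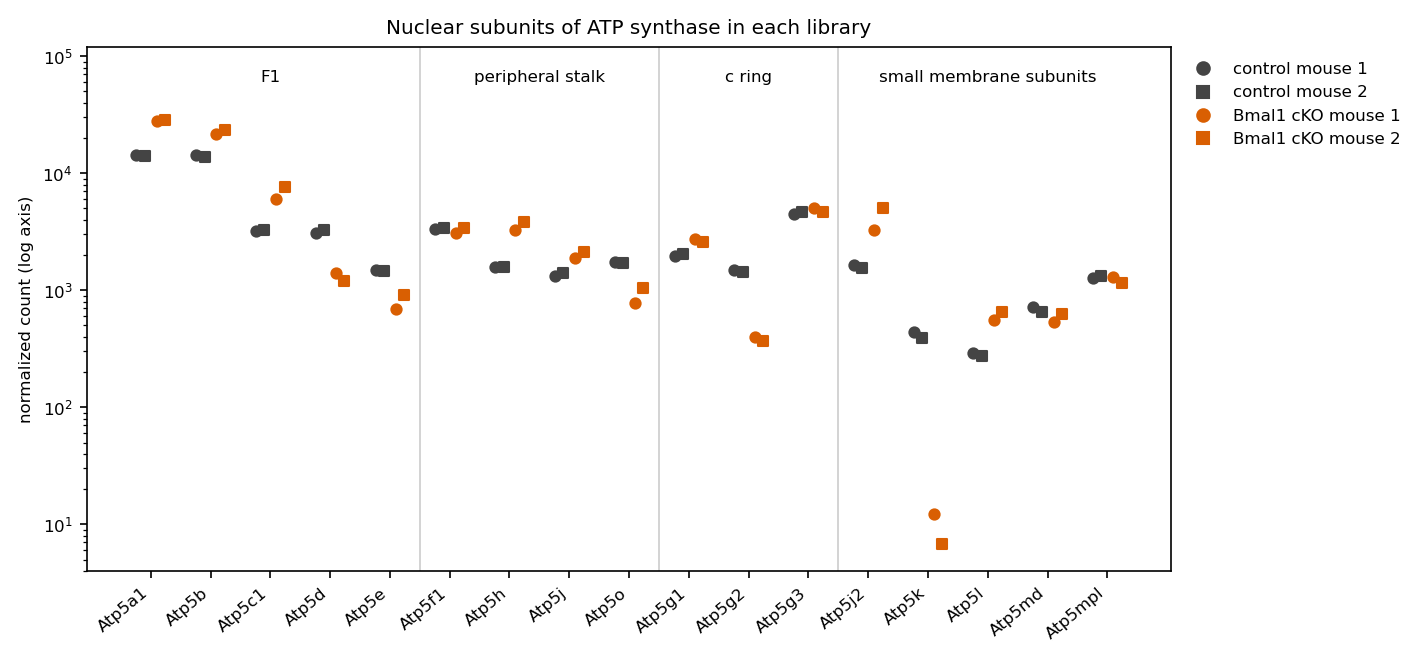
Normalized counts (y axis, log scale) of the 17 tested nuclear subunits of ATP synthase in each of the 4 libraries, grouped by the part of the enzyme they belong to, with grey for control and orange for Bmal1 cKO mice. The alpha, beta and gamma genes Atp5a1, Atp5b and Atp5c1 are higher in both Bmal1 cKO mice, Atp5d and Atp5e are lower, and Atp5k goes from 440.2 and 394 to 12.3 and 6.76.

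In the peripheral stalk, Atp5h and Atp5j, the d and F6 subunits, were higher by 1.17 and 0.55 and Atp5o, which caps the head, was lower by a log2 difference of -0.93. Atp5f1, the b subunit, stood at -0.06 (adjusted p = 0.614). Atp5h had 1581 and 1571 normalized counts against 3279 and 3825 (log2 difference 1.17, SE 0.11, adjusted p = 0.000844), so the groups did not overlap. The c subunit is made from 3 genes that encode the same mature protein, and these genes differed. Atp5g2 had 1495 and 1435 normalized counts in the controls against 400.1 and 365 in the cKO mice (log2 difference -1.94, SE 0.10, adjusted p = 0.000533). Atp5g1 had 1969 and 2059 normalized counts against 2733 and 2575 (log2 difference 0.40, SE 0.09, adjusted p = 0.0139), a rise that did not pass with the libraries set to equal totals or without control mouse 1 or either Bmal1 cKO mouse, and that was larger after the correction (0.92, adjusted p = 0.00336). Atp5g3 had 4492 and 4702 normalized counts against 5007 and 4682 and did not pass (log2 difference 0.08, SE 0.09, adjusted p = 0.52). Summed over the 3 genes, the normalized counts came to 7957 and 8196 for the controls against 8140 and 7622 for the Bmal1 cKO mice, so the sums of the groups overlapped. The coding sequence of Atp5g2 is matched in full by Gm10175 on chromosome 7, which was not listed, so reads can be shared between them and the level of Atp5g2 is uncertain.

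The small membrane subunits of ATP synthase held the largest fall of all members. Atp5k (ENSMUSG00000050856, chr5:108433244-108434448), the e subunit that links the enzyme into dimers, had 440.2 and 394 normalized counts in the controls against 12.3 and 6.76 in the cKO mice (log2 difference -5.36, SE 0.36, adjusted p = 0.000533). In reads these were 521 and 465 against 12 and 5, and the mean of the control mice was 43.7 times that of the Bmal1 cKO mice. With each library left out in turn its log2 difference lay between -5.75 and -4.97, and it was -4.97 after the correction. Its partner Atp5l, the g subunit, moved the opposite way, with 291 and 275 normalized counts against 561 and 649 (log2 difference 1.09, SE 0.13, adjusted p = 0.00179). Atp5j2, the f subunit, had 1629 and 1559 normalized counts against 3289 and 5088 (log2 difference 1.36, SE 0.21, adjusted p = 0.00387). These 2 neighbours of Atp5k in the membrane were thus higher in the mice in which Atp5k was lowest. Atp5md and Atp5mpl did not pass at -0.24 and -0.08, and were lower after the correction, at -0.80 and -0.76.

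The mitochondrially encoded subunits together took a smaller share of the reads in the Bmal1 cKO mice. Their share was 5.50% (95% Wilson interval 5.49 to 5.51) and 3.90% (3.89 to 3.91) in the controls, against 2.59% (2.58 to 2.59) and 2.56% (2.55 to 2.57) in the Bmal1 cKO mice. The intervals cover counting error only. The groups did not overlap, at 4.70% ± 1.13 and 2.57% ± 0.0164 (SD, n = 2), but the control mice were further from each other than control mouse 2 was from the Bmal1 cKO mice. With 2 against 2, a two-sided exact permutation test cannot reach 0.05. Reads on mitochondrial members were 5.41 and 3.95 times those on nuclear members in the controls, against 2.47 and 2.24 times.

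Gene by gene, 4 of the 11 mitochondrial members tested fell (36.4%) and 1 rose (9.09%), beside 27.7% and 29.0% of all genes, with a median log2 difference of -0.33. All 4 calls were lost when either Bmal1 cKO mouse was left out, which left 0 lower. mt-Cytb (chrM:14145-15288), the cytochrome b of complex III, had 100787 and 73759 normalized counts in the controls against 32485 and 28539 in the cKO mice (log2 difference -1.50, SE 0.23, adjusted p = 0.00387). mt-Nd1, at the joint of the arms of complex I, had 73645 and 54197 normalized counts against 28542 and 22723 (log2 difference -1.31, SE 0.23, adjusted p = 0.00621). mt-Nd4, a proton-pumping subunit, had 36513 and 26575 normalized counts against 17032 and 15049.6 (log2 difference -0.96, SE 0.20, adjusted p = 0.0104). In these genes both Bmal1 cKO mice were below both control mice, and so they were for mt-Nd6, the subunit encoded on the opposite strand, with 9671 and 6988 normalized counts against 5747 and 5162 (log2 difference -0.59, SE 0.18, adjusted p = 0.0343). mt-Co1, the catalytic subunit of complex IV and the most abundant member, had 342687 and 249795 normalized counts against 209876 and 233172. It was lower in both Bmal1 cKO mice but did not pass (log2 difference -0.40, SE 0.39, adjusted p = 0.41), whereas DESeq2 on the recovered reads called it lower (log2 difference -0.43, adjusted p = 0.0337), with 5 members lower in all. mt-Nd5 and mt-Nd2, further pumping subunits, did not pass at -0.33 (adjusted p = 0.235) and -0.08 (adjusted p = 0.76), and their groups overlapped.

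The genes of the mitochondrial genome thus did not fall in step. In the control mice, whose shares differed, the make-up of the mitochondrial reads was nearly the same, with mt-Co1 at 53.5% of them in both and mt-Cytb at 15.7% and 15.8%. In the Bmal1 cKO mice mt-Co1 took 59.2% and 65.3% and mt-Cytb 9.16% and 7.99%. mt-Nd1 went from 11.5% and 11.6% to 8.05% and 6.36%, and mt-Nd2 from 4.71% and 4.48% to 7.18% and 6.22%. mt-Nd5 took 7.33% and 7.43% against 9.81% and 8.32%. mt-Nd4 went from 5.70% and 5.69% to 4.80% and 4.21%. mt-Cytb, mt-Nd1 and mt-Nd4 thus gave up share, and mt-Co1, mt-Nd2 and mt-Nd5 gained it.

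Once GC content and length had been corrected for, 7 (63.6%) of the 11 mitochondrial members tested were lower and 0 were higher. Over all genes, 16.7% were then lower and 18.4% were higher. The median of the members was -1.42, beside -0.01 over all genes. The 7 were mt-Nd1, mt-Nd2, mt-Nd4, mt-Nd5, mt-Nd6, mt-Cytb and mt-Co1, at log2 differences of -2.49, -1.42, -2.33, -1.60, -2.06, -2.54 and -1.40. These transcripts are poor in GC, and only 1011 of the genes tested lie in the same range of GC content, so that the curve there also rests on genes outside that range. The call for mt-Nd3 was lost, going from 1.30 to -0.24 (adjusted p = 0.275).

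**Figure D4:**
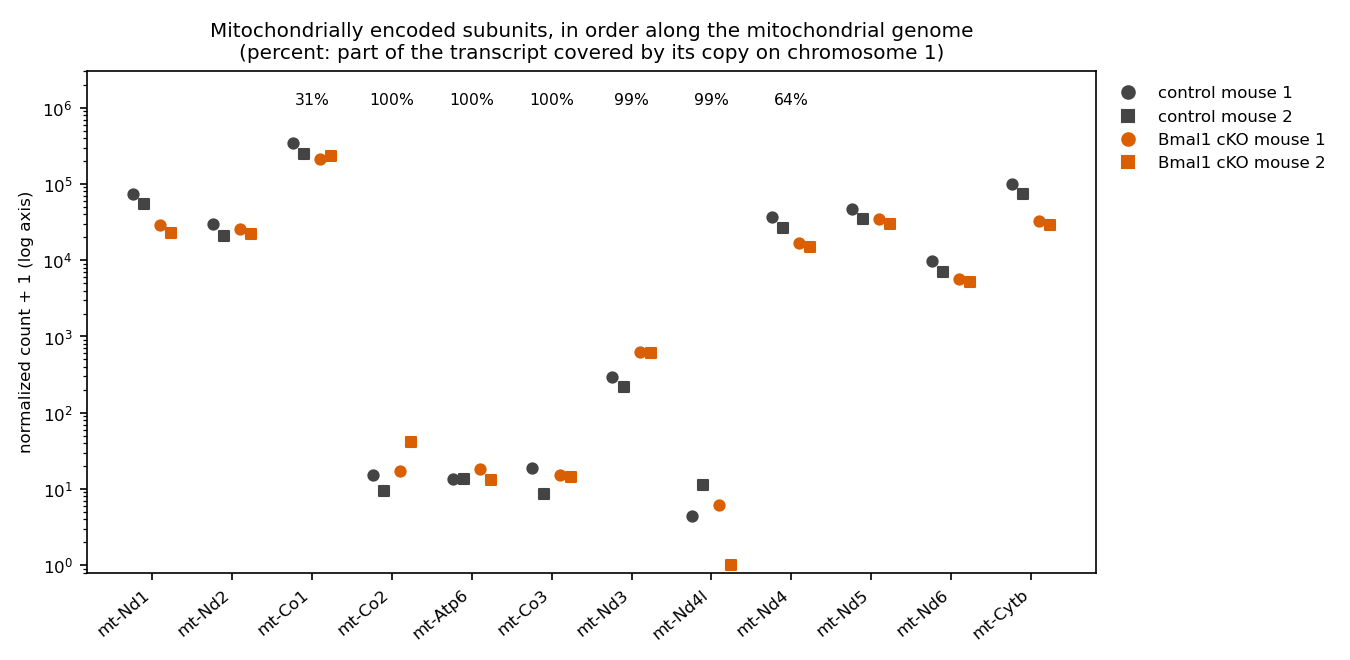
Normalized count + 1 (y axis, log scale) of the 12 mitochondrially encoded members in each of the 4 libraries, in their order along the mitochondrial genome, with the percentage of each transcript that its copy on chromosome 1 covers printed above. The 5 genes covered almost in full reach at most 632 normalized counts, and the other 7 have at least 5162.

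Among the mitochondrial members, 5 had very few reads. mt-Co2 and mt-Co3, core subunits of complex IV, mt-Atp6, the proton channel of ATP synthase, and mt-Nd4l of complex I had between 0 and 40.6 normalized counts in every library, and mt-Nd3 had 293 and 216 normalized counts against 632 and 612. These are the 5 genes of which nearly the whole transcript, 98.99 to 99.87% of its bases, also lies on chromosome 1 of GRCm38, in a stretch between 24611535 and 24616197 that was inserted from mitochondrial DNA. There mt-Co2, mt-Co3, mt-Atp6 and mt-Nd4l are matched at 100% by Gm28661, Gm28437, Gm10925 and Gm10222, and mt-Nd3 at 99.7% by Gm28438. None of these copies was among the listed genes. On chromosome 1, mt-Nd4 is matched over 63.6% of its length and mt-Co1 over 31.3%, and mt-Co1 has a further copy of its full length, 97.6% the same, in Gm13340 on chromosome 2. Their levels are therefore uncertain too. A read from such a stretch fits both places equally, and how the counting treated it was not stated. The start of mt-Co2 and of its copy, from the GENCODE transcripts of GRCm38, shows the match:
mt-Co2, chrM:7013-7102, plus strand: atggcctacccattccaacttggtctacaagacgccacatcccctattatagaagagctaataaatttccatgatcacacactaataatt
Gm28661, chr1:24615476-24615565, minus strand: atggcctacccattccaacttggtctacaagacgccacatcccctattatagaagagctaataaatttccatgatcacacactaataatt
Over 681 bases the pair was the same without a break, and the first 90 are shown. The rise called for mt-Nd3 (log2 difference 1.30, SE 0.18, adjusted p = 0.00253) therefore belongs to a gene whose reads can hardly be told apart from those of its copy. Without the 5 genes, 4 (57.1%) of 7 mitochondrial members were lower and 0 were higher, beside 27.7% and 29.0% of all genes, with a median of -0.59.

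Complex II, which the rule did not take because its genes are named Sdh, moved in 1 direction. It links the citric acid cycle to the chain and has 4 nuclear genes and no mitochondrial one. Sdha, the flavoprotein, had 3332 and 3278 normalized counts in the controls against 6249 and 7414 in the cKO mice (log2 difference 1.04, SE 0.12, adjusted p = 0.00139). Sdhb, the iron-sulfur protein, had 1557 and 1729 normalized counts against 3563 and 4384 (log2 difference 1.27, SE 0.13, adjusted p = 0.00115). Sdhc and Sdhd, the membrane anchors, were higher by 0.70 and 1.01. All 4 were higher after the correction as well, with a median of 0.82. Of 6 electron carriers and further subunits of complexes III to V, 3 were lower and 2 were higher, and 2 and 2 after the correction. Over all genes, 27.7% were lower and 29.0% were higher, and 16.7% and 18.4% after the correction. Cyc1, the cytochrome c1 of complex III, had a log2 difference of -0.56 (adjusted p = 0.00354) that became 0.06 (adjusted p = 0.6). Cox4i1, the largest nuclear subunit of complex IV, had 2904 and 2960.4 normalized counts against 2438 and 3037 and did not pass (log2 difference -0.11, adjusted p = 0.497), but was higher by 0.74 (adjusted p = 0.0126) after the correction. Ndufab1, the acyl carrier protein bound to complex I, was higher by 0.40 (adjusted p = 0.011), but stood at -0.12 (adjusted p = 0.321) after the correction.

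The genes that build, transcribe and translate the chain gave 60 lower and 60 higher among 181 tested, or 33.1% each way beside 27.7% and 29.0% of all genes, complex II and the carriers included. This balance depended on the scaling. With equal library totals 79 were lower and 40 were higher, and with equal totals over nuclear genes 82 were lower and 38 were higher, where the median over all genes lay at -0.26 and -0.29. After the correction 36 (19.9%) were lower and 38 (21%) were higher, beside 16.7% and 18.4% of all genes. The same shares of all genes stand beside each corrected count below. With control mouse 1, control mouse 2, Bmal1 cKO mouse 1 and Bmal1 cKO mouse 2 left out in turn, the lower calls were 31, 30, 40 and 39 and the higher calls 39, 40, 40 and 35. Of 20 assembly factors of complex I, 3 were lower and 7 were higher, and 2 and 3 after the correction. Of 4 assembly factors of complex V, 2 were lower and 0 were higher, and after the correction 0 were called. Of 9 genes of mitochondrial DNA replication, 1 was lower and 4 were higher, and 1 and 3 after it. Of 26 assembly factors of complexes III and IV tested, 8 were lower and 7 were higher, and 2 and 4 after it. Of the 78 mitochondrial ribosomal proteins, 38 were lower and 17 were higher, with a median of -0.34, and 27 and 12 after it, with a median of -0.25. Genes of mitochondrial DNA transcription and RNA handling had 13 of 21 higher and 2 lower, and 5 higher and 1 lower after the correction. Among them Tfam, which packs mitochondrial DNA and starts its transcription, had 683 and 623 normalized counts against 1153 and 1441 (log2 difference 0.98, SE 0.14, adjusted p = 0.00293), with 0.31 (adjusted p = 0.129) after the correction. Lrpprc, which keeps mitochondrial messenger RNA stable, had 1215 and 1266 normalized counts against 2701 and 2699 (log2 difference 1.12, SE 0.09, adjusted p = 0.00059), with 0.68 (adjusted p = 0.00489). Polrmt, the mitochondrial RNA polymerase, had 413 and 413 normalized counts against 266 and 218 (log2 difference -0.78, SE 0.15, adjusted p = 0.00904), but 0.61 (adjusted p = 0.0199) after the correction. Of these 3 genes, Lrpprc alone was called in the same direction before and after the correction. Of 12 nuclear regulators of respiratory genes, 3 were lower and 5 were higher, and 1 and 5 after the correction. Ppargc1a, a coactivator that drives mitochondrial growth, had 137 and 272 normalized counts against 403 and 493 (log2 difference 1.20, SE 0.34, adjusted p = 0.0287), and 0.18 (adjusted p = 0.698) after the correction. Nrf1, an activator of many subunit genes, did not pass (0.13, adjusted p = 0.405). Ppargc1b did not pass (0.40, adjusted p = 0.154) and was higher by 1.34 (adjusted p = 0.0112) after the correction.

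The promoters of the nuclear members were searched for short motifs, because members of 1 complex moved in opposite directions. RefSeq promoters of GRCm38.p6 were found for 62 of the 73 nuclear members, of which 27 were called lower, 19 higher and 16 neither. The 250 bases before the start were searched on both strands. The E-box CACGTG, the motif that BMAL1 binds together with CLOCK, lay in 6 of the 62 (9.68%), beside 6.86% of the 27025 genes with a promoter. In both shares a gene with several promoters was counted once, if any of them held the motif. These 6 were Atp5g1, Atp5l and Ndufv1, called higher, and Atp5f1, Atp5g3 and Ndufa7, called neither, and 0 of the 27 called lower had it. The motif CCGGAAG of ETS factors such as GABPA lay in 11 (17.7%, beside 7.83%), 6 of them lower and 4 higher. The part GCGCATG of the NRF1 motif lay in 9 (14.5%, beside 3.68%), 6 of them lower and 1 higher. The YY1 motif AAGATGG lay in 1 (1.61%, beside 5.18%). The 5 promoters below are those of the members called higher that hold the E-box and of the members with the largest falls in complexes V and III, with matches to these motifs in capitals:
Atp5g1, chr11:96075632-96075881, minus strand: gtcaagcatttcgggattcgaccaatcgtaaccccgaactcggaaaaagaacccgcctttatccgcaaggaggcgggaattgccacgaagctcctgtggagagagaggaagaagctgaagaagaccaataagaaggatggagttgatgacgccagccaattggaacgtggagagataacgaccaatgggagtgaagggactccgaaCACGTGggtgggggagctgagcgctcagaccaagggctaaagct
Atp5l, chr9:44920743-44920992, minus strand: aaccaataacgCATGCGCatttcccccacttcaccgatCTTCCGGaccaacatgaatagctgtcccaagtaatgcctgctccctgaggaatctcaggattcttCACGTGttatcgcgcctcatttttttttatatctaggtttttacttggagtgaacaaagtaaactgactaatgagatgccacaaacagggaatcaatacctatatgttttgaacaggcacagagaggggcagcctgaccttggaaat
Ndufv1, chr19:4012756-4013005, minus strand: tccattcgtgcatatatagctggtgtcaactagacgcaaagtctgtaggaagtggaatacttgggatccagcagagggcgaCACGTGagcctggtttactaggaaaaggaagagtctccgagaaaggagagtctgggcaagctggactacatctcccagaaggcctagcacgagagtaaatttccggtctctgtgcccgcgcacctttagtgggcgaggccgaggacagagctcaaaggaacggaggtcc
Atp5k, chr5:108434400-108434649, minus strand: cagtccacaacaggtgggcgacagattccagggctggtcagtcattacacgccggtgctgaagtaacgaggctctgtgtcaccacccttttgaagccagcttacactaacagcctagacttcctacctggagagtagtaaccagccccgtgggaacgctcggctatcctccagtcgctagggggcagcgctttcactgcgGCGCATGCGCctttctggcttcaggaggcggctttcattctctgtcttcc
Uqcr11, chr10:80406822-80407071, minus strand: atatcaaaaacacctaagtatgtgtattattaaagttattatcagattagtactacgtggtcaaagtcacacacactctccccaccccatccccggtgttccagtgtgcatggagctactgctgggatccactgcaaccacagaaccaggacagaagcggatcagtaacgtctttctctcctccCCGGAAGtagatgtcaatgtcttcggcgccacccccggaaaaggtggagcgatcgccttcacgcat
In Atp5l the capitals mark an NRF1 match, an ETS match and the E-box, in Atp5g1 and Ndufv1 the E-box alone, in Atp5k overlapping NRF1 matches on both strands, and in Uqcr11 an ETS match. A match is not a bound site, and no binding was measured in these libraries. For all of these but Atp5l, the gene's start in the GENCODE annotation lies inside the stretch shown.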

How the data were processed

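RNA-seq was performed on the colonic epithelium of 2 control and 2 Bmal1 cKO mice. The methods of the study name STAR for alignment to GRCm38 and DESeq2 for the comparison. How the deposited values were scaled, the gene counter, its annotation release and its handling of strand and of reads that fit several places are not given in the sources used here. The labels name a VAHTS library kit and the methods a NEBNext kit. The values the authors deposited are a signal with 1 column per mouse, each a set of whole multiples of 1 step, as gene counts divided by a factor per library are. Whole reads were recovered for 100.0% of values within a tolerance of 0.02 reads, over 10312791 to 14156639 reads per library. The authors' comparison columns (mean, log2 fold change, its standard error, a Wald score, p-value and adjusted p-value) were not used.

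Genes with a mean of 10 or more were tested with limma 3.58.1 in R 4.3.3 on log2(value + 1), two-sided, with a trend, a group term and Benjamini-Hochberg adjustment over 13983 genes. For the correction, each library's log2 values were adjusted with loess curves (span 0.3) on GC content and length, known for 16003 of 16015 listed genes from GENCODE. edgeR 4.0.16 and DESeq2 1.42.0 were run on the recovered reads. Copies were found with blastn 2.17.0. The fits were also run on simulated counts with far fewer changed genes and an equal spread in all libraries. That run does not show how well the fits work in these data. The members and lists were chosen with earlier results of these data known. Named by rule were all mitochondrial members, the 3 highest and 3 lowest nuclear members of each complex, paralogs, the core subunits of complex I, the alpha, beta and gamma subunits of ATP synthase, and 12 pathway genes. Other members were named, and roles within complexes assigned, after their values had been seen. No batch is given in the labels. The p-values rest on the spread between 2 mice per group. In limma, each gene's variance was also drawn toward a trend over all genes tested. With a library left out, the lone mouse of its group is assumed to vary like the others. Pseudocounts, filters, scalings, a replicate block and left-out libraries were tried as alternatives. Those that leave out members with near-identical copies, and all for the other pathway genes, were chosen after seeing the data. The values of 1 nuclear subunit, which enters the counts, are not reported here.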

Additional observations from a re-analysis of the deposited data

How the results depend on the processing

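With 2 mice per group the calls depended on single libraries and on base composition. Against 29 lower and 23 higher nuclear members, leaving out 1 library gave 16 to 27 lower and 18 to 22 higher. It gave 0 to 4 lower mitochondrial members (4 with all libraries), 6 to 13 lower in complex I (14), 4 to 6 lower and 1 to 3 higher in complex IV (7 and 2), 2 to 3 lower and 2 to 3 higher in complex III (3 and 3), 4 to 5 lower and 6 to 8 higher in complex V (5 and 8), and 30 to 40 lower and 35 to 40 higher among the other pathway genes (60 and 60). The median was -0.32 to -0.00290 for the nuclear (-0.19) and -0.55 to -0.11 for the mitochondrial members (-0.33). The cause was not tested, since leaving out a library changes the number and the identity of the mice together.

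The correction for GC content and length gave 7 lower and 0 higher mitochondrial members, 4 lower and 1 higher in complex IV, 36 lower and 38 higher pathway genes, and medians of 0.065 (nuclear) and -1.42 (mitochondrial). With the replicate block added it gave 0 higher mitochondrial members, 9 lower in complex I, 4 lower and 1 higher in complex IV, 33 lower and 31 higher pathway genes, and the same medians of 0.065 and -1.42. In both corrected fits the sign turned, with a call in at least 1 of the fits compared, for the named genes mt-Nd3 (-0.24), Atp5d (0.071), Ndufs7 (0.96), Ndufs8 (0.90, from a value near 0), Ndufv2 (-0.43), Cyc1 (0.061), Cox4i1 (0.74) and Polrmt (0.61). Equal library totals gave a nuclear median of -0.42. Equal totals over nuclear genes gave medians of -0.45 and -0.59, 8 lower and 7 higher in complex V (5 and 8) and 82 lower and 38 higher pathway genes (60 and 60), and equal library totals gave 7 and 7 and 79 and 40. Leaving out the mitochondrial members with a full-length copy gave 0 higher and a median of -0.59. Why these settings moved the values was not tested.

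Mice of both groups are numbered 1 and 2. The methods of the study name the same litter for all mice, but nothing says that a number marks a pair or a shared day. The deviations of the mice numbered 1 correlated at -0.0908. With the replicate block, 27 nuclear members were lower and 22 higher, and 4 mitochondrial members were lower and 1 higher. Of 987 values for 62 named genes over 16 alternatives, 877 kept their sign and their side of the threshold, 26 changed sign without a call in either fit, 55 lost the call, 13 gained it and 16 changed sign with a call. Few reads limit Ndufa4l2, Cox6b2, mt-Nd4l, mt-Co2, mt-Co3 and mt-Atp6.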
